A study of Mus musculus with 9 samples.

Results

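Phospholipid transfer protein is encoded by Pltp (NCBI gene 18830). Pltp is 1 of 5608 genes listed in a table of liver transcript levels from mice under 2 short regimens of dietary restriction, and 1 of the 4665 genes with a mean of at least 1 TPM over all libraries (TPM, a measure of transcript abundance corrected for gene length and library total). The gene was selected on its measured values in these libraries, which stood apart after intermittent fasting, so its levels and differences are given as a description without a test. The sex and age of the mice were not given in the sources used here. All 9 libraries came from the liver of wild-type C57BL/6 J mice, with 1 mouse for each library and 3 libraries in each group. The FED mice had standard diet ad libitum. The IF mice went without food on day 1 and again on day 4, for 24 h each time, and ate ad libitum in between. The FMD mice received a fasting-mimicking diet on days 2 to 4, at 50% of their average intake on the first of these days and 10% thereafter. The mice of all groups were sacrificed on day 5. The groups differed in diet composition, in the degree and timing of the restriction and in refeeding, which cannot be told apart here. IF and FMD mice also had hydrogel for hydration. Each library was oligo-dT-selected mRNA from whole liver, a bulk sample in which fewer cells of a type and less RNA per cell cannot be told apart.

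The protein is a secreted member of the BPI/LBP fold family, which also holds the lipopolysaccharide-binding protein Lbp. In plasma it moves phospholipids released from triglyceride-rich lipoproteins onto high-density lipoprotein (HDL) and remodels HDL particles into larger and smaller ones. Mice lack an active cholesteryl ester transfer protein, a related plasma factor of humans. Liver, macrophages, adipose tissue and lung are among the tissues that make it. The nuclear receptors LXR, FXR and PPARα are known to raise its transcription in mouse liver. LXR senses oxysterols, FXR senses bile acids, and PPARα responds to fatty acids during fasting.

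These receptors bind pairs of the half-site AGGTCA, each with a partner receptor, RXR. The 250 bases before the annotated start of Pltp are shown because that is where a promoter-proximal pair of half-sites would lie. They span chr2:164857709-164857958 on the minus strand of GRCm38.p6 (sequence and annotation from RefSeq), and capitals mark the single match to the GC box GGGCGG, here on the opposite strand as CCGCCC.
Pltp: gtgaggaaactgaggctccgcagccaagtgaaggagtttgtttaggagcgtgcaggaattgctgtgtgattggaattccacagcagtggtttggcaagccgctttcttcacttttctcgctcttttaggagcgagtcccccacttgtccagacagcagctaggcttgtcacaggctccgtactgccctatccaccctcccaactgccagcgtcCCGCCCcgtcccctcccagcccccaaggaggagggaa

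The GC box began at base 214 of this window, and 32.7% of 32851 windows of the same length before annotated starts held it on either strand. An exact AGGTCA was not found on either strand of the Pltp window, against 14% of all windows with at least 1. Pairs of exact half-sites were therefore also not found. These were pairs in the same direction with 1 base (DR1) or 4 bases (DR4) between them, or inverted around 1 base (IR1). Such pairs were rare in all windows, at 0.0335% for DR1, 0.0152% for DR4 and 0.00609% for IR1, so nearly all windows lacked them. The TATA motif TATAAA was likewise not found on either strand, against 12.4% of all windows. GC content was 57.6%, above that of 65.8% of the windows, whose median was 52.4%. These letters describe 1 short window, and sites outside it or with other letters were not searched.

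Libraries differed in how much of all transcripts the listed genes took, which bears on each comparison. By the TPM total, the listed genes made up 26.3 to 29.3% in FED, 32.9 to 34.9% in IF and 34.95 to 42.99% in FMD, with the highest sum in FMD replicate 1. That library also had the highest level of the macrophage gene Cd68, at 64.0 TPM against 3.14 to 12.2 in the other 8. All values are given as deposited, and scaled TPM, for which every library was divided by 1 factor, its median gene-wise ratio to a geometric-mean reference, are added where they differ. Scaling assumes that the typical listed gene does not differ between groups. Read depth is unknown, since the table holds TPM and no read counts.

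Pltp was at 20.5, 30.4 and 46.3 TPM in the FED libraries. It was at 134.1, 220.5 and 157.3 TPM in the IF libraries. It was at 28.6, 41.4 and 25.7 TPM in the FMD libraries. Every IF library was higher than every FED and FMD library, while the FED and FMD libraries overlapped. The lowest IF library was 2.90 times the highest FED library and 3.24 times the highest FMD library.

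The mean level was 32.4 ± 13.0 TPM in the FED group, 171 ± 44.7 TPM in the IF group and 31.9 ± 8.37 TPM in the FMD group (SD, n = 3 each). In order, IF stood first, and the neighbours FED and FMD did not differ beyond their spread. The IF mean was 5.27 times the FED mean and 5.35 times the FMD mean. On the log2(TPM + 1) scale, with standard errors from the limma fit over all libraries, IF exceeded FED by 2.40 (SE 0.28) and FMD lay below IF, at -2.38 (SE 0.28). FMD minus FED was 0.02 (SE 0.28). The FED libraries varied most relative to their mean, with a coefficient of variation of 40.1% against 26.2% in IF and in FMD.

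**Figure D1:**
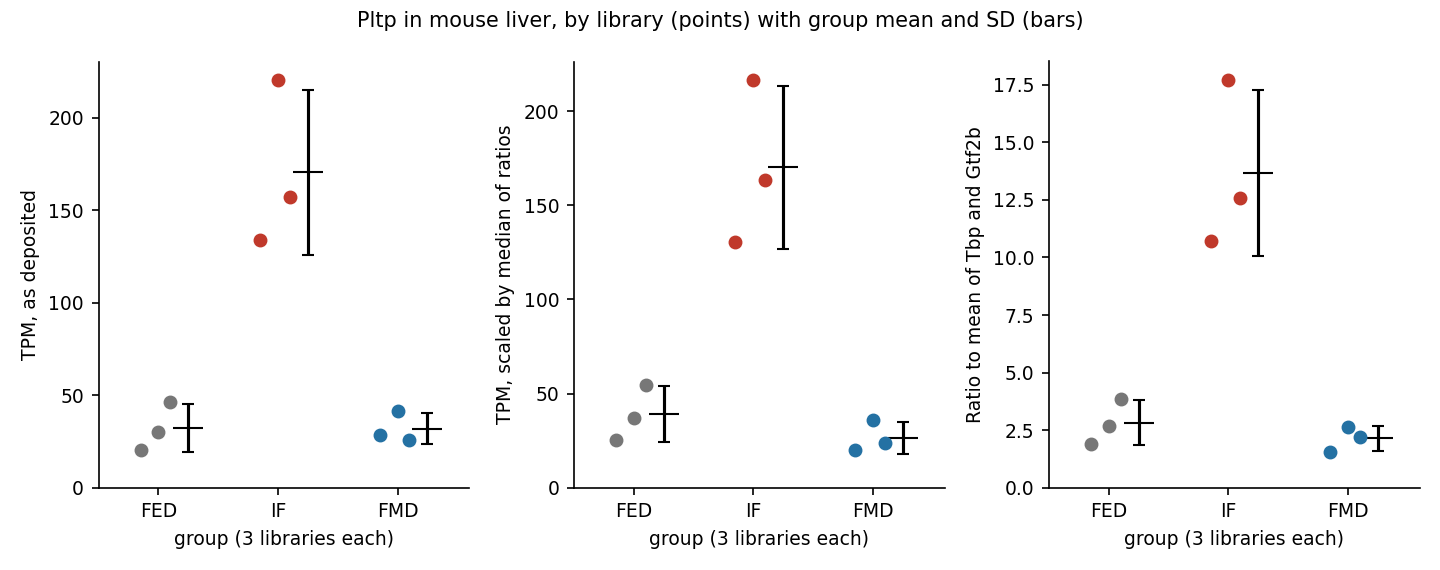
Pltp in each liver library (points) with the mean and SD of each group (bars) as deposited TPM, as scaled TPM, and as a ratio to the geometric mean of Tbp and Gtf2b; each y axis starts at 0. The IF libraries lie between 134.1 and 220.5 TPM, above all FED and FMD libraries on each of the 3 scales.

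After scaling, each IF library still lay above the other 6, with a mean of 170.1 ± 43.4 against 39.0 ± 14.8 in FED and 26.5 ± 8.53 in FMD (SD, n = 3). IF minus FED became 2.13 (SE 0.29) and FMD minus IF became -2.65 (SE 0.29). FMD minus FED moved from 0.02 to -0.52 (SE 0.29), so the sign of this difference rested on the scaling, and the scaled FED values of 25.4 to 54.8 overlapped the FMD values of 19.8 to 36.1. Relative to the geometric mean of Tbp, the TATA-binding protein, and Gtf2b, a general transcription factor, both used by the study as qPCR reference genes, Pltp stood at 2.82 ± 0.979 in FED, 13.7 ± 3.61 in IF and 2.14 ± 0.541 in FMD (SD, n = 3). The separation of IF from both other groups was thus present on each scale.

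Pltp stood higher among the listed genes in IF than in the other groups. In FED its mean level exceeded that of 78.3% of the genes tested, in IF that of 92.5% and in FMD that of 70.6%. Its IF minus FED difference was the 9th highest of 4665, and its FMD minus IF difference the 2nd lowest, with the same places after scaling. Only Scd1, stearoyl-CoA desaturase of monounsaturated fatty acid synthesis, had a lower FMD minus IF difference. The median differences of all genes tested were 0.24 for IF minus FED, 0.48 for FMD minus FED and 0.24 for FMD minus IF.

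In 82 genes, 1.76% of those tested, all 3 IF libraries exceeded the 6 other libraries, and the widest such gap was that of Pltp. Dividing the lowest IF value by the highest of the other values, each with 1 TPM added, gave 2.86 for Pltp. The next genes were Pebp1, a phosphatidylethanolamine-binding inhibitor of Raf signalling, at 1.5, the growth-arrest gene Gas1 at 1.43 and the chemokine gene Cxcl12 at 1.41. After scaling, 243 genes (5.21%) had IF libraries above all others, and Pltp again had the widest gap, 2.35, followed by 1.51 for Nnt, the mitochondrial transhydrogenase. Pltp was also among the more variable genes within groups, with a residual SD of 0.44 on the log2(TPM + 1) scale against a median of 0.18, above that of 95.5% of the genes.

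**Figure D2:**
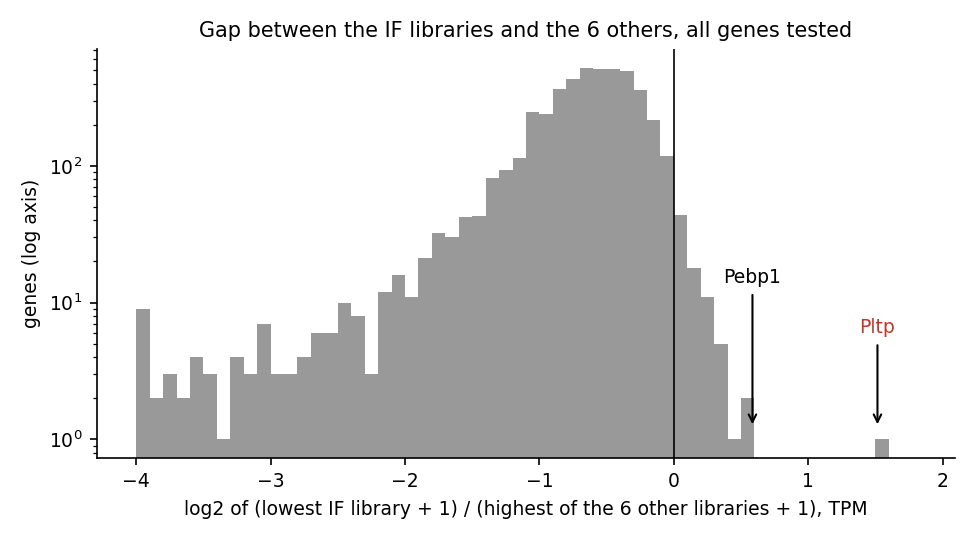
Histogram of the gap between the IF libraries and the 6 others for the 4665 genes tested; the x axis is the log2 ratio of the lowest IF value to the highest FED or FMD value (each plus 1 TPM, with the few genes far below the range drawn in the lowest bin) and the y axis counts genes on a log scale. Pltp (gap ratio 2.86) lies apart on the right, beyond Pebp1 (1.5).

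Genes that act with Pltp on lipoproteins were tested between the groups. Of a list of 53 genes of HDL and lipoprotein assembly, remodelling and uptake, 14 were tested, and 4 rose in IF against FED (limma, Benjamini-Hochberg adjusted p under 0.05 and a change of over 1.5-fold on the log2(TPM + 1) scale), which were Angptl4, Sdc1, Npc1 and Lipa. Over all genes tested, 10.3% were called higher and 1.59% lower in this comparison. The list's median difference was 0.33 beside 0.24 for all genes. Each of the 14 lay below Pltp, as did nearly all genes tested. Pltp was selected on its values and ranked 9th highest of 4665 in this comparison. In FMD against FED 4 members rose, Angptl4, Npc1, Lipa and Pon2, where 35.5% of all genes were called higher and 1.59% lower, and the list's median was 0.28 beside 0.48. In FMD against IF, Angptl4 and Npc1 rose and Sdc1 fell, where 4.67% of all genes were called higher and 0.472% lower. Members, Pltp and background genes in these comparisons share the FED or the IF libraries.

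Angptl4, an inhibitor of lipoprotein lipase, followed the order FED, IF, FMD, unlike Pltp. Its FED libraries were at 60.9 to 87.5 TPM, its IF libraries at 148.8 to 177.1 and its FMD libraries at 240.2 to 325.4, so the groups did not overlap. The difference was 1.11 (SE 0.16, adjusted p = 0.00139, limma) for IF minus FED, 1.87 (SE 0.16, adjusted p = 3.3e-05) for FMD minus FED and 0.76 (SE 0.16, adjusted p = 0.0304) for FMD minus IF. After scaling the last was 0.48 and was no longer called (adjusted p = 0.169).

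Sdc1, the heparan sulfate proteoglycan syndecan-1 that takes up remnant lipoproteins in hepatocytes, was the list member with the profile nearest to that of Pltp. It was at 120.3, 86.5 and 110.2 TPM in FED, at 216.0, 237.9 and 187.4 in IF and at 131.9, 151.7 and 116.8 in FMD. Every IF library lay above the other 6, and FED and FMD overlapped. IF minus FED was 1.02 (SE 0.16, adjusted p = 0.00174, limma), FMD minus FED was 0.34 (adjusted p = 0.0735) and FMD minus IF was -0.68 (SE 0.16, adjusted p = 0.0336). Sdc1 kept its calls against FED and against FMD after scaling, at 0.74 (adjusted p = 0.0164) and -0.95 (adjusted p = 0.0226). The FMD minus IF call of Sdc1 ended when any of FED 1, FED 3, IF 1, IF 2 or IF 3 was left out, with values of -0.77 to -0.59.

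Among intracellular cholesterol genes, Npc1, the lysosomal cholesterol exporter, rose by 0.75 in IF (SE 0.17, adjusted p = 0.0106, limma) and by 1.38 in FMD (SE 0.17, adjusted p = 0.000221). Lipa, lysosomal acid lipase, rose by 0.62 (SE 0.15, adjusted p = 0.0168) and 0.91 (SE 0.15, adjusted p = 0.00109). Both of these IF calls were lost after scaling, with 0.48 for Npc1 (adjusted p = 0.107) and 0.34 for Lipa (adjusted p = 0.0748). They were also lost without IF 1 or IF 2, and that of Lipa without FED 1 or FED 2, with values over all single omissions of 0.66 to 0.88 for Npc1 and 0.57 to 0.70 for Lipa. Pon2, an intracellular paraoxonase, rose in FMD by 0.64 (SE 0.19, adjusted p = 0.0131), a call lost after scaling (0.10) and without FED 1, FMD 1 or FMD 4 (0.52 to 0.89 over single omissions). The call of Npc1 in FMD against IF (0.62, adjusted p = 0.0487) was lost after scaling (0.35) and without any library but FMD 4 (0.48 to 0.75).

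The apolipoproteins and the HDL receptor of the list did not pass the test as deposited. Apoe, the remnant and HDL apolipoprotein, was at 17018.8 to 18399.8 TPM in FED, 25899.3 to 26646.7 in IF and 23228.8 to 27111.8 in FMD. The FED libraries of Apoe lay below the others, but its differences of 0.56 and 0.52 were under the fold limit, and both shrank after scaling, to 0.27 and -0.04. Apoc1, an HDL and remnant apolipoprotein that hinders remnant uptake, had its highest values in IF, at 11675.0 to 12755.3, 14884.1 to 16478.2 and 10059.6 to 12504.1 TPM, and was called lower in FMD against FED (-0.72, adjusted p = 0.0203) and against IF (-0.82, adjusted p = 0.043) only with scaled libraries. The HDL receptor Scarb1 was at 86.4 to 107.1, 96.3 to 116.2 and 104.2 to 125.2 TPM, and these ranges overlapped. Of 16 core genes of the pathway and its regulators that were to be named whatever their values, 4 were listed (Apoe, Scarb1, Lbp and Srebf1), and others such as Apoa1, Apob, Apom, Abca1, Lcat, Lipc and the genes of the receptors LXRα, LXRβ, FXR, PPARα and RXRα were not analysed here.

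**Figure D3:**
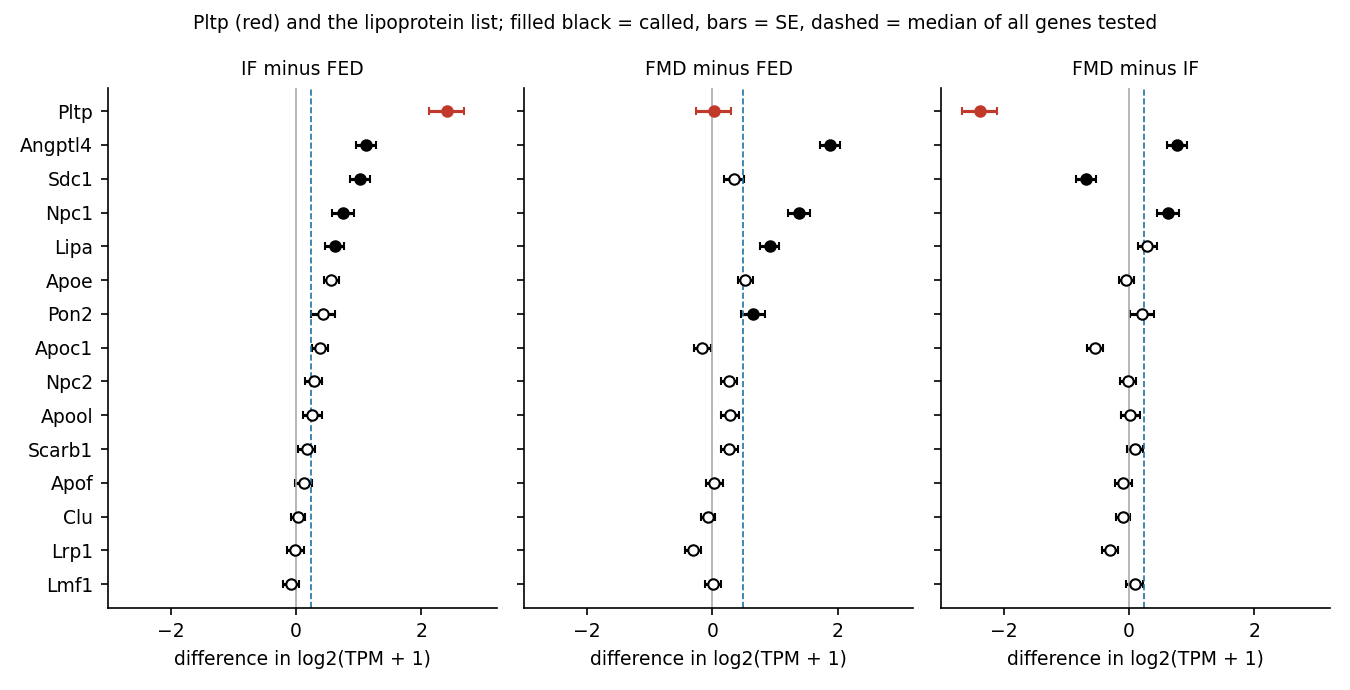
Differences in log2(TPM + 1) for Pltp (red) and the 14 tested members of the lipoprotein list in the 3 comparisons; bars are standard errors, filled black points passed the test, and the dashed line is the median of all genes tested. Pltp lies at 2.40, 0.02 and -2.38, and Sdc1 is the only member called with the sign of Pltp in FMD minus IF on values as deposited.

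Scaled libraries gave 2 lipoprotein calls in IF against FED, 5 in FMD against FED and 2 in FMD against IF. In IF against FED 2 members rose (Angptl4 and Sdc1), where 3.71% of all genes were called higher and 3.43% lower. In FMD against FED 2 rose (Angptl4 and Npc1) and 3 fell (Apoc1, the remnant receptor Lrp1 and the HDL-associated chaperone Clu), where 5.47% were called higher and 5.72% lower. In FMD against IF 2 fell (Sdc1 and Apoc1), where 1.07% were called higher and 1.09% lower.

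Genes of phospholipid synthesis, remodelling and transfer act on the lipids that Pltp carries. Of 62 genes 25 were listed and 23 tested, 7 rose in IF against FED and 11 in FMD against FED, and 3 rose in FMD against IF, where 10.3%, 35.5% and 4.67% of all genes were called higher. The medians of the list were 0.39, 0.58 and 0.04, beside 0.24, 0.48 and 0.24 for all genes. After scaling, 4 rose in IF (3.71% of all genes called higher), 4 rose and 3 fell in FMD against FED (5.47% higher and 5.72% lower), and 1 fell in FMD against IF (1.09% lower). Each of the 23 lay below Pltp in IF minus FED, where Pltp ranked 9th highest of the 4665 genes tested. In FMD minus FED, where Pltp ranked 4223rd, 19 lay above it. Most genes tested lay on the same sides of Pltp.

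Crls1, cardiolipin synthase of mitochondria, had the largest rise of this list in IF, 1.28 (SE 0.12, adjusted p = 0.000156, limma), from 20.8 to 22.7 TPM in FED to 50.5 to 57.9 in IF, and it stood at 45.4 to 57.5 in FMD. Chkb, a choline and ethanolamine kinase, rose by 1.11 in IF and 1.28 in FMD (SE 0.11 each, adjusted p = 0.000218 and 3.3e-05). Gpat4 and Agpat3, acyltransferases at the start of glycerophospholipid synthesis, rose by 1.05 (SE 0.15, adjusted p = 0.00117) and 1.01 (SE 0.14, adjusted p = 0.00102) in IF. In these 4 genes FMD minus IF lay between -0.12 and 0.39 as deposited and was not called. After scaling, Gpat4 was still called in IF against FED (0.77, adjusted p = 0.0228) but not in FMD against FED (0.38, adjusted p = 0.171), and Crls1 was called in both, at 1.01 and 0.69. Plpp3, a lipid phosphate phosphatase, was nearer to the profile of Pltp, at 38.2 to 50.4 TPM in FED, 91.0 to 93.9 in IF and 42.6 to 73.1 in FMD. Plpp3 rose by 1.01 in IF (SE 0.19, adjusted p = 0.00502), but FMD minus IF was -0.63 with adjusted p = 0.0661, and the IF call was lost after scaling (0.73, adjusted p = 0.0812). Sgms1, sphingomyelin synthase, and Agpat1 went the other way, with rises in FMD against IF of 0.80 (SE 0.18, adjusted p = 0.0315) and 0.59 (SE 0.14, adjusted p = 0.0345) that scaling ended (0.56 and 0.35), as did leaving out any FED or IF library (0.61 to 0.99 and 0.45 to 0.67). The third such call was the scramblase gene Plscr1, at 1.28 (SE 0.33, adjusted p = 0.0455), which was lost after scaling (1.01, adjusted p = 0.0627) and without any FED or IF library (0.77 to 1.55 over single omissions). The FMD libraries of Plscr1 stood at 39.5, 13.5 and 12.6 TPM, with the highest in replicate 1, and its FMD minus FED difference of 0.83 was 0.32 without FMD 1.

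Lbp, which binds bacterial lipopolysaccharide, was the only other BPI/LBP fold gene of 11 searched that the table listed. It was at 70.7, 43.1 and 60.4 TPM in FED, at 103.9, 104.8 and 91.0 in IF and at 110.7, 111.7 and 118.5 in FMD. As deposited, Lbp was thus higher after both regimens, whereas the FMD levels of Pltp overlapped those of FED. It rose by 0.80 in IF (SE 0.16, adjusted p = 0.00737, limma) and by 0.98 in FMD (SE 0.16, adjusted p = 0.000981), and FMD minus IF was 0.19 (adjusted p = 0.406). After scaling, the differences of 0.52 and 0.43 from FED were no longer called (adjusted p = 0.0873 and 0.118).

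Known targets of the receptors that act on Pltp were then placed beside it. Each of the 19 tested genes of a list of 48 PPARα targets rose in IF and in FMD against FED, with medians of 1.34 and 1.86, where 10.3% and 35.5% of all genes were called higher. After scaling 17 rose in each, where 3.71% and 5.47% of all genes were called higher. In FMD minus FED, where Pltp was at 0.02, all 19 lay above it. Most genes tested did so too, since Pltp ranked 4223rd from the highest of 4665 there. In IF minus FED, where Pltp ranked 9th highest, only Acot2 and Plin4 lay above it. Acot2, a mitochondrial acyl-CoA thioesterase, was at 0.53 to 1.56 TPM in FED, 11.0 to 15.5 in IF and 29.4 to 88.4 in FMD, with differences of 2.95 and 4.76 from FED (SE 0.34 each, adjusted p = 0.000401 and 1.16e-05, limma). Plin4, a lipid droplet coat protein, was at 0.28 to 0.64, 6.29 to 9.72 and 6.0 to 8.19 TPM. Acot2 and Plin4 averaged 0.903 and 0.477 TPM in FED, so they passed the filter of 1 TPM through their IF and FMD levels. Cpt1a, which carries fatty acyl groups into mitochondria, was at 66.2 to 96.5, 235.3 to 279.3 and 257.5 to 486.6 TPM. In these 3 genes every FMD library lay above every FED library, where Pltp in FMD overlapped FED.

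Slc22a5, the carnitine transporter, and Slc27a1, a fatty acid transporter, had rises close to that of Pltp in IF, 2.11 (SE 0.16, adjusted p = 6.38e-05, limma) and 2.20 (SE 0.36, adjusted p = 0.00246), and rose in FMD too, by 2.91 (SE 0.16, adjusted p = 2.88e-06) and 2.34 (SE 0.36, adjusted p = 0.000689). The 3 PPARα targets called higher in FMD against IF were Acot2, Slc22a5 and Angptl4, and each of these calls was lost without any 1 of the IF libraries, with values over single omissions of 1.39 to 2.17, 0.66 to 0.92 and 0.62 to 0.84. Over all genes 4.67% were called higher in this comparison. The calls of Slc22a5 and Angptl4 were also lost without FED 3 and after scaling (0.53 and 0.48, adjusted p = 0.126 and 0.169), which left Acot2 (1.53, adjusted p = 0.0256).

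Of 29 genes of LXR, its partner receptor and its targets, 12 were tested and moved in both directions. In IF against FED 2 rose (Mylip and Npc1) and 2 fell (Srebf1 and Fasn), and in FMD against FED 5 rose (Mylip, Npc1, Rxrb, Lpcat3 and Abcc4) and 3 fell (Scd1, Srebf1 and Fasn). Over all genes 10.3% were called higher and 1.59% lower in IF, and 35.5% and 1.59% in FMD. After scaling 1 rose and 3 fell in IF (3.71% higher and 3.43% lower over all genes), and 2 rose and 5 fell in FMD (5.47% and 5.72%), where Rxrb (0.28), Lpcat3 (0.26) and Abcc4 (0.68) were no longer called. The medians were 0.30 and 0.39, beside 0.24 and 0.48 for all genes. Of the 12, 9 also belong to the lipoprotein, phospholipid or lipogenic lists. Mylip, an E3 ubiquitin ligase induced by LXR, was at 1.64 to 2.45 TPM in FED, 4.76 to 5.35 in IF and 5.64 to 9.33 in FMD, and rose by 0.99 and 1.49 (SE 0.17 each, adjusted p = 0.00294 and 0.000144). Srebf1, the lipogenic factor downstream of LXR and insulin, was at 66.2, 28.1 and 44.6 TPM in FED, at 19.0, 24.5 and 23.6 in IF and at 17.1, 11.0 and 24.3 in FMD. It fell by 0.95 in IF (SE 0.31, adjusted p = 0.048) and by 1.34 in FMD (SE 0.31, adjusted p = 0.00434). The IF call of Srebf1 was lost without FED 1 (-0.65), FED 3 or any IF library, and that of Fasn (-1.35) without FED 1, FED 3, IF 1 or IF 2 (-1.70 to -1.14). The FMD rise of Abcc4, 0.95, was 0.40 without FMD 1. Abcc4 averaged 0.37 TPM in FED and 0.863 in IF, and stood at 4.65, 0.94 and 0.68 TPM in FMD. It thus passed the filter of 1 TPM through FMD 1, the library where it was high.

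Scd1, a target of both LXR and SREBP-1c, also stood high in IF against FMD. It was at 1603.6, 1170.0 and 1899.4 TPM in FED, at 1557.9, 2395.4 and 1502.8 in IF and at 42.9, 21.0 and 44.4 in FMD. Unlike Pltp, Scd1 was as high in FED as in IF, with a difference of 0.22 (SE 0.29, adjusted p = 0.596, limma), and its FMD minus IF difference was -5.66 (SE 0.29, adjusted p = 6.04e-06). Of 25 insulin- and SREBP-1c-responsive lipogenic genes 12 were tested, 5 fell and 2 rose in IF, and 6 fell and 3 rose in FMD, with medians of -0.43 and -0.66, beside 10.3% of all genes called higher and 1.59% lower in IF and 35.5% and 1.59% in FMD. After scaling 7 fell and 1 rose in IF, and 9 fell and 1 rose in FMD, with medians of -0.68 and -1.21, beside 3.71% higher and 3.43% lower over all genes in IF and 5.47% and 5.72% in FMD. Acss2, Acly and Rdh11 fell in both, by 1.26, 1.24 and 1.22 in IF and by 1.68, 1.16 and 1.14 in FMD, and Elovl5 and Insig2 rose in both. After scaling Insig2 was called in neither (0.59 and 0.52, adjusted p = 0.0598 and 0.0713, limma), and its IF rise of 0.87 was also lost without FED 2, FED 3, IF 1 or IF 2 (0.81 to 0.97). Srebf1, Fasn, Acaca and Scd1 are also in the LXR list. Of 24 FXR genes only Sdc1 and Scarb1 were tested.

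**Figure D4:**
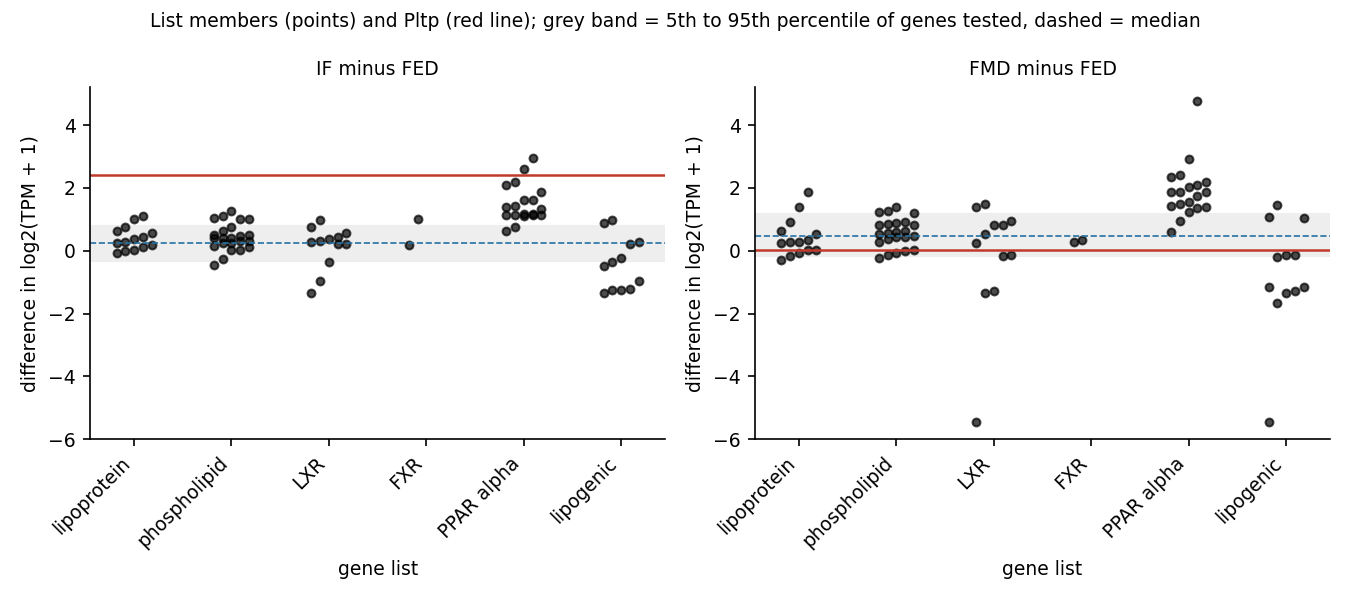
Differences from FED in log2(TPM + 1) of the tested members of 6 gene lists (points; members shared by lists are drawn in each) for IF and for FMD; the red line is Pltp, the grey band spans the 5th to the 95th percentile of all genes tested and the dashed line is their median. Pltp lies above all list members but Acot2 and Plin4 in IF, and below all 19 PPARα targets in FMD. Among all 4665 genes tested it ranked 9th from the highest in IF and 4223rd in FMD.

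The genes most like Pltp over the 9 libraries had the same high IF values but smaller differences. Ranked by Pearson's r of log2(TPM + 1) with Pltp, they were Tnxb (0.917), Ahr (0.903), Pebp1 (0.887), Zcchc24 (0.878), Clec2d (0.877), Hoga1 (0.875), Sdc1 (0.868), Irf9 (0.863), Rhobtb3 (0.863) and Cxcl12 (0.862). These r are a description over 9 libraries that share the 3 group means, and 33 genes (0.708%) were over 0.8. In each of the 10 genes all IF libraries lay above the other 6, a pattern that their choice by r with Pltp favoured. Their IF means were 1.43 to 2.03 times the FED means and 1.27 to 1.95 times the FMD means, where Pltp had 5.27 and 5.35.

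Ahr, the aryl hydrocarbon receptor, was at 7.42, 6.03 and 7.40 TPM in FED, at 12.9, 12.9 and 10.3 in IF and at 6.62, 8.34 and 7.63 in FMD. Pebp1 was at 174.7, 160.8 and 161.6 TPM in FED, at 335.4, 294.6 and 356.1 in IF and at 172.9, 171.4 and 196.0 in FMD. Cxcl12, a chemokine made by stromal and endothelial cells, was at 139.7 to 151.8 TPM in FED, 283.1 to 318.1 in IF and 112.7 to 201.1 in FMD. Of the rest, Irf9 is a factor of interferon signalling, Hoga1 an enzyme of hydroxyproline breakdown, Clec2d a C-type lectin and Tnxb a matrix glycoprotein that stood at only 0.78 to 1.60 TPM. After scaling none of the 10 stayed among the first 10, and 5 were among the first 50. The first gene by scaled r was Znfx1, an RNA-sensing helicase (r = 0.935), which was at 7.60 to 8.86 scaled TPM in FED, 9.13 to 11.0 in IF and 6.32 to 6.96 in FMD.

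**Figure D5:**
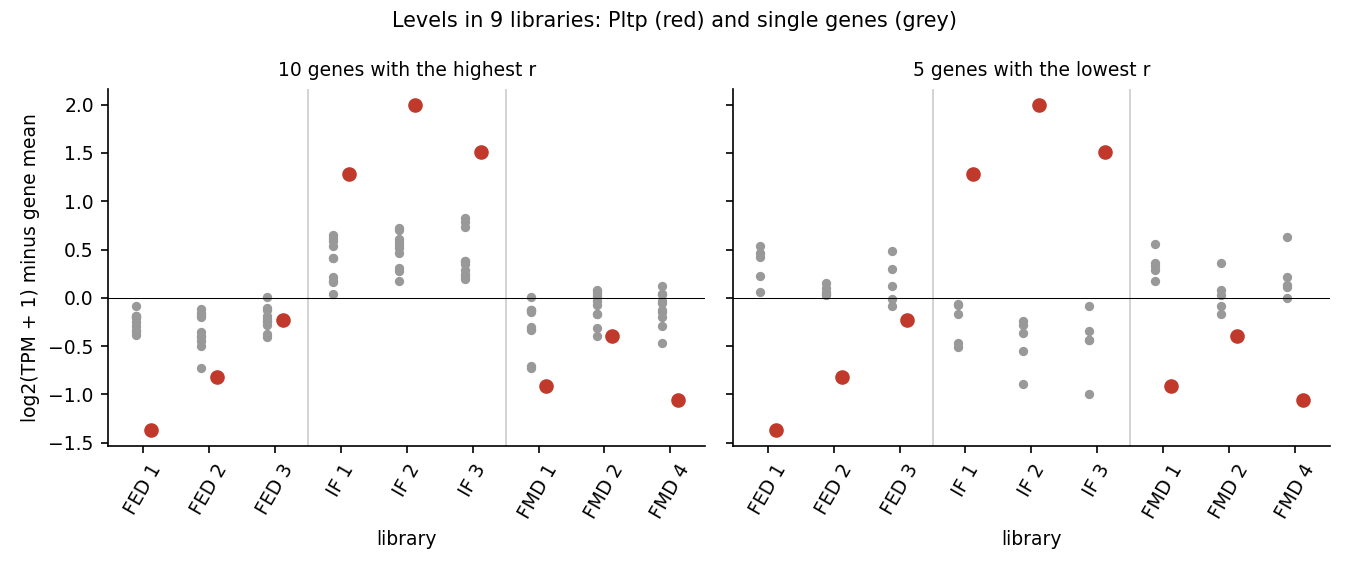
Level of each gene in each of the 9 libraries, as log2(TPM + 1) minus the gene's mean, for Pltp (red) with the 10 genes of highest r (left, grey) and the 5 of lowest r (right, grey). The grey genes follow the IF libraries up or down but over a smaller range than Pltp.

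At the other end, Slc39a4, a zinc importer, had the lowest r (-0.935). It was at 43.8, 33.9 and 44.4 TPM in FED, at 21.9, 16.5 and 15.2 in IF and at 40.7, 40.6 and 49.1 in FMD, so that IF lay below all others. The IF mean of Slc39a4 was 0.439 times that of FED. Mmaa (-0.889), Tuba4a (-0.888), Ddost (-0.885) and Vamp7 (-0.881) followed, and in 3 of these 5 genes the IF libraries lay below all others. After scaling r was -0.798 for Slc39a4, -0.406 for Mmaa, -0.535 for Tuba4a, -0.633 for Ddost and -0.518 for Vamp7. Mmaa and Vamp7 were not called in any comparison.

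Pltp lies on chromosome 2 between Ctsa and Pcif1. Of the 3 nearest protein-coding genes on each side, Neurl2, Ctsa and Mmp9 were listed, and Spata25, Pcif1 and Zfp335 were not analysed here. Ctsa, the lysosomal protective protein cathepsin A, overlaps Pltp at the 3′ ends on the opposite strand, so reads of the overlap are told apart only by strand-aware counting. The libraries were strand-specific, but the setting used for counting was not given in the sources used here. Ctsa was at 44.6 to 48.1 TPM in FED, 66.9 to 68.1 in IF and 75.3 to 105.9 in FMD, so its highest group was FMD, where Pltp was low. Ctsa rose by 0.86 in FMD (SE 0.13, adjusted p = 0.000711, limma), a call lost after scaling (0.31), and its IF difference of 0.53 was under the limit. Neurl2 was at 1.82 to 2.57, 3.38 to 3.82 and 2.82 to 4.65 TPM, and Mmp9 at 0.05 to 0.28 over all libraries, below the filter.

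Cell type markers bear on a gene that hepatocytes, macrophages and fat cells can each make. Most defining markers were not in the table (Alb of hepatocytes, Clec4f of Kupffer cells, Stab2 of sinusoidal endothelium, Cd3e of T cells and Adipoq of fat), so the liver label was checked only in part, by the hepatocyte genes Ass1 and Hpx, 2 of 15 in their list. Their summed level was 6305 to 11140 TPM in FED, 5900 to 9097 in IF and 5540 to 9171 in FMD. The 2 of 17 macrophage markers listed, Cd68 and Slc40a1, summed to 36.2 to 61.1, 62.7 to 73.0 and 45.5 to 110.8 TPM, and neither was called. Endothelial markers (2 of 18) summed to 29.6 to 31.3, 25.9 to 33.3 and 27.8 to 52.0 TPM. Of these, Oit3 was called higher in FMD against FED (0.73, adjusted p = 0.0145, limma) and against IF (0.82, adjusted p = 0.0483). Over all genes 35.5% and 4.67% were called higher in these comparisons. Both calls of Oit3 were lost after scaling (0.22 and 0.56).

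Stellate and fibroblast markers (6 of 18) summed to 137.1 to 161.9 TPM in FED, 220.4 to 271.2 in IF and 183.7 to 342.8 in FMD. Their defining gene Dcn was at 64.1 to 90.1, 119.8 to 156.3 and 106.0 to 212.8 TPM and was called higher in both, at 0.86 (SE 0.23, adjusted p = 0.0229, limma) and 0.90 (SE 0.23, adjusted p = 0.0074). Both calls of Dcn ended after scaling (0.58 and 0.34, adjusted p = 0.0574 and 0.196). Ecm1, a matrix protein of stellate cells, was the other member called higher in both, at 0.65 and 0.60, and was not called after scaling (0.38 and 0.04). Gas1, a further member, was high in IF as Pltp was, at 5.47 to 8.36, 12.4 to 13.2 and 1.79 to 6.47 TPM. Its IF minus FED difference was not called (0.83, adjusted p = 0.059, limma). It was called lower in FMD against FED (-0.73, adjusted p = 0.043) and against IF (-1.56, adjusted p = 0.0193), and both calls held after scaling (-1.16 and -1.74). The remaining members Hgf, Pdgfrb and Col1a1 were not called, with IF minus FED differences of 0.43, 0.15 and -0.13. Over all genes 10.3% were called higher in IF and 35.5% in FMD against FED. Lower calls took 1.59% in FMD against FED and 0.472% in FMD against IF. Adipocyte markers (3 of 8) summed to 14 to 20.1, 20.5 to 50.8 and 27.2 to 97.9 TPM, and 2 of them, Lipe and Pparg, were called higher in IF and all 3 in FMD, where 10.3% and 35.5% of all genes were. After scaling only Pparg was called in IF (0.87, adjusted p = 0.0488), and the FMD differences of Lipe, Pparg and Fabp4 were 0.27, 0.38 and 1.35 (adjusted p = 0.267, 0.314 and 0.145). The bile duct marker Krt19 stayed at 0.76 to 4.07 TPM, and the lymphocyte gene Ccl5, 1 of 14, at 0.64 to 15.1 TPM. As deposited, the stellate and adipocyte sums of every IF and every FMD library exceeded those of every FED library, where Pltp did so only in IF. Sums were not made on scaled values. The scaled median difference from FED was 0.32 in IF and -0.18 in FMD for the stellate markers, and 0.46 and 0.38 for the adipocyte markers. The lowest IF adipocyte sum, 20.46 TPM, was close to the highest FED sum, 20.11 TPM. Medians of member differences do not show whether sums overlap, so for both lists the contrast with Pltp is given only as deposited. The macrophage sum, as deposited, was higher in every IF library than in every FED library and overlapped FED in FMD. Its highest value was in an FMD library. This order came from Slc40a1, at 29.87 to 50.75 TPM in FED and 57.46 to 67.02 in IF. Cd68 went the other way, at 6.35 to 10.35 TPM in FED and 3.14 to 5.99 in IF. The part of other cell types in the level of Pltp was not tested.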

How the data were processed

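The values analysed were TPM per gene, deposited by the authors as 1 table of all 9 libraries with 2 decimals; the authors made strand-specific oligo-dT libraries for DNBSEQ, and their processing notes name mm39 and DESeq2. Aligner and counting setting were not given in the sources used here, nor why 5608 genes were listed. Columns were matched to the labels by name. The 4665 genes that averaged 1 TPM or more entered the test on log2(TPM + 1), a scale that understates changes of low genes, in 1 limma (3.58.1, R 4.3.3) fit of all libraries with a mean-variance trend. Calls needed a Benjamini-Hochberg adjusted p under 0.05 over all genes tested and a change of over 1.5-fold on that scale, the limits of the study. The fit was tested on simulated data.

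Named genes were Pltp, the 10 genes with the highest and 5 with the lowest Pearson r with it, 16 core genes, up to 3 called members of each list per comparison, members of called counts of 5 or fewer, and the nearest neighbours. The gene and the lists were chosen with earlier results of these data known. Gas1, Nnt, Znfx1 and other genes outside this rule were named after their values were seen. Entries without a mouse gene in RefSeq were left out of list sizes. Alternatives were 2 other scalings, pseudocounts of 0.1 and 0.5, filters, separate fits, a replicate block and each library left out. Scaling combined with each left-out library was added after seeing the data.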

Additional observations from a re-analysis of the deposited data

How the results depend on the processing

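Pltp in IF minus FED lay between 2.11 and 2.69 under the alternatives without a left-out library added to scaling. Leaving out 1 library gave 2.12 to 2.69, or 1.86 to 2.41 with scaled libraries, where the lowest values came without FED 1 (1.86) and IF 2 (1.94). FMD minus IF gave -2.58 to -2.18, or -2.88 to -2.46 scaled (-2.82 without IF 1). FMD minus FED, 0.02 as deposited, was -0.52 scaled and -0.51 after quantile normalization, and -0.26 to 0.31 without 1 library, or -0.78 to -0.24 scaled (-0.75 without FMD 2 and -0.46 without FMD 4). With a replicate block the 3 Pltp differences were 2.40, 0.28 and -2.12, and the lipoprotein calls numbered 4, 3 and 4. Same-numbered libraries of 2 groups deviated together with r of 0.003 to 0.177 over 7 pairs, against -0.202 to 0.211 over 20 other pairs, so they were taken to share only a number.

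Lipoprotein calls in IF against FED went from 4 to 2 with scaling, with quantile normalization or at an adjusted p under 0.01, and were 2 to 4 without 1 library, the lowest without IF 1 or IF 2, or 0 to 2 scaled. In FMD against FED 4 calls became 5 scaled, and 3 to 4 without 1 library, or 3 to 7 scaled, the highest without FMD 2. In FMD against IF 3 calls became 1 after quantile normalization, 0 in separate limma fits for each pair (4 of 14 members had an unadjusted p under 0.05) and 0 at an adjusted p under 0.01, and 0 to 4 without 1 library, with 0 without FED 3 or any IF library, or 0 to 3 scaled. The genes most like Pltp kept 5 of 10 within the first 50 after scaling and 4 of 10 after quantile normalization. Of 61 calls of named list genes, 38 held after scaling and none of the alternatives reversed one. Without each library in turn, 16 of 21 IF calls, 26 of 29 FMD calls and 1 of 11 FMD against IF calls (Scd1) held throughout. TPM without counts gives no depth, so the counting error behind a low value is unknown. The cause of the lost calls was not tested.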
